A study of Mus musculus with 14 samples.

Results

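A set of 10 Notch pathway genes was followed through 4 kinds of sequencing library from mouse muscle stem cells (MuSCs). They are the ligands Jag1 and Dll1, the receptors Notch1, Notch2 and Notch3, the transcription factors Hes1, Hes6, Hey1 and Heyl, and the inhibitor Numb. All 10 were found by symbol among the 14837 genes of the input table. They were chosen by pathway and by a measured value, the RNA difference of Heyl between the groups, so the RNA values of the 10 genes are given below as a description, with no test.

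Control MuSCs and Lin28a+ MuSCs from skeletal muscle were compared. The Lin28a+ cells were sorted from Lin28a-CreERT2; LSL-tdTomato mice, in which a Cre recombinase driven by Lin28a turns on a red reporter. The mice of the control group, the age and sex of the animals and the number of animals behind a library are not given in the sources used here. Both groups were cultured on Matrigel in DMEM with 10% fetal bovine serum. The study had 14 libraries, 2 for each group and assay. Input libraries hold the RNA of the cells, m6A-RIP the RNA pulled down with an antibody to N6-methyladenosine (m6A, the commonest internal mark of mRNA), and Igf2bp3-RIP the RNA bound to the m6A reader Igf2bp3, each in control and in Lin28a+ cells. Lin28a-RIP, the RNA bound to the RNA-binding protein Lin28a, was made from Lin28a+ cells only. No label says that the libraries of a group came from separate cultures or animals, so p-values measure the spread between these libraries, which may be technical. The RNA of Lin28a itself was not analysed here.

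Notch receptors are cut after binding a ligand on a neighbouring cell, and the freed intracellular part enters the nucleus, joins the DNA-binding protein Rbpj and a Mastermind (Maml) coactivator, and switches on Hes and Hey genes. Hes1, Hey1 and Heyl are repressors of this family. Hes6 is a relative that opposes Hes1 and accompanies muscle differentiation, and Numb is an adaptor that restrains the receptors. In satellite cells, the resident stem cells of muscle, Notch signalling is known to maintain quiescence and Pax7 and to hold back differentiation.

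Depth differed among assays. The deposited values summed to between 4842915 and 6220960 in the input, 21350962 and 31830638 in m6A-RIP, 9215355 and 34142094 in Igf2bp3-RIP, and 33908110 and 36610494 in Lin28a-RIP. The biological coefficient of variation, the spread between libraries of a group beyond counting error, was 2.48% for RNA, 5.74% for m6A-RIP per gene and 27.9% for Igf2bp3-RIP peaks. In the input table the 4 values of 9 of the 10 genes became whole numbers, within 0.02, when multiplied by a single whole number of at most 20 (12 for Numb, 11 for Notch1, 1 for Jag1), as means over that many transcripts would. Input levels are therefore not compared between genes, and sums over marker genes, in which genes may weigh unequally, serve only to compare libraries. The RNA fits took these values as counts, so the RNA coefficient of variation, SEs and adjusted p-values may be misjudged, which was not tested. For the Lin28a+ cells, both input columns are headed as m6A-RIP libraries and both m6A-RIP columns bear 1 shared name. The names give the cells of these 4 columns, but not a usable replicate number. That the first pair holds input was taken from the table in which it stands, and the RNA differences rest on this.

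Levels below are CPM, the counts of a gene per 1000000 counts of the library, and log2 fold changes come from edgeR with TMM scaling, which sets libraries level on the bulk of genes. Heyl (chr4:123233556-123249870) had the largest difference of the 10 genes. Its input level was 2.38 and 3.91 CPM in the control libraries against 47.9 and 55.3 CPM in the Lin28a+ libraries, from 13 and 24.3 estimated counts against 242 and 268. The groups were far apart, with a log2 fold change of 3.99 ± 0.17 (SE, 2 libraries per group), rank 17 from the highest of the 11317 genes tested. Leaving out each of the 4 libraries in turn gave 3.71 to 4.38.

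Hey1 (chr3:8663359-8667038), the nearest relative of Heyl in the list, was also higher. It stood at 27.4 and 30.9 CPM in control against 82.0 and 81.9 CPM in Lin28a+ libraries, a log2 fold change of 1.46 ± 0.05, rank 248 from the highest. Hes1 (chr16:30065357-30067796), a classical Notch target, was at 35.9 and 37.6 CPM in control against 50.7 and 53.8 CPM in Lin28a+ libraries (0.47 ± 0.05). So all 3 Hes and Hey repressors of the list were higher in both Lin28a+ libraries, but by sizes from 0.47 to 3.99 on the log2 scale. Over all 11317 genes tested the groups did not overlap in 84.6% (40% with Lin28a+ lower), so such a separation was the common case. Hes6 (chr1:91411483-91414038) went the other way, from 667 and 669 CPM in control to 345 and 347 CPM in Lin28a+ libraries (log2 −0.98 ± 0.02).

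The ligands differed in direction. Dll1, a Delta-type ligand, was at 23.4 and 24.2 CPM in control against 33.1 and 33.6 CPM in Lin28a+ libraries (log2 0.45 ± 0.05). Jag1, a Jagged-type ligand, was at 19.9 and 21.7 CPM in control against 16.2 and 16.7 CPM in Lin28a+ libraries (log2 −0.37 ± 0.07).

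The 3 receptors differed among themselves. Notch3 was at 146 and 143 CPM in control against 194 and 197 CPM in Lin28a+ libraries (log2 0.41 ± 0.03). Notch2 was at 214 and 213 CPM in control against 222 and 230 CPM in Lin28a+ libraries (0.05 ± 0.03), the smallest difference of the 10 genes. Notch1 was at 36.0 and 38.4 CPM in control against 33.3 and 31.4 CPM in Lin28a+ libraries (−0.23 ± 0.06), so the receptor differences ran in both directions and were all below those of Hey1 and Heyl. Numb was at 3.49 and 3.12 CPM in control against 2.8 and 2.48 CPM in Lin28a+ libraries, from 12.0 to 19.4 estimated counts (−0.33 ± 0.18). Over all 11317 genes tested, 56.8% passed an adjusted p under 0.05 (edgeR quasi-likelihood test, Benjamini-Hochberg), 3184 higher and 3248 lower. No call is given for the 10 genes, since the choice of the genes had used this contrast. With DESeq2 their differences lay close by with wider errors, such as 4.00 ± 0.34 for Heyl, 0.45 ± 0.24 for Dll1 and −0.24 ± 0.22 for Notch1, and 3039 genes passed in all.

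**Figure D1:**
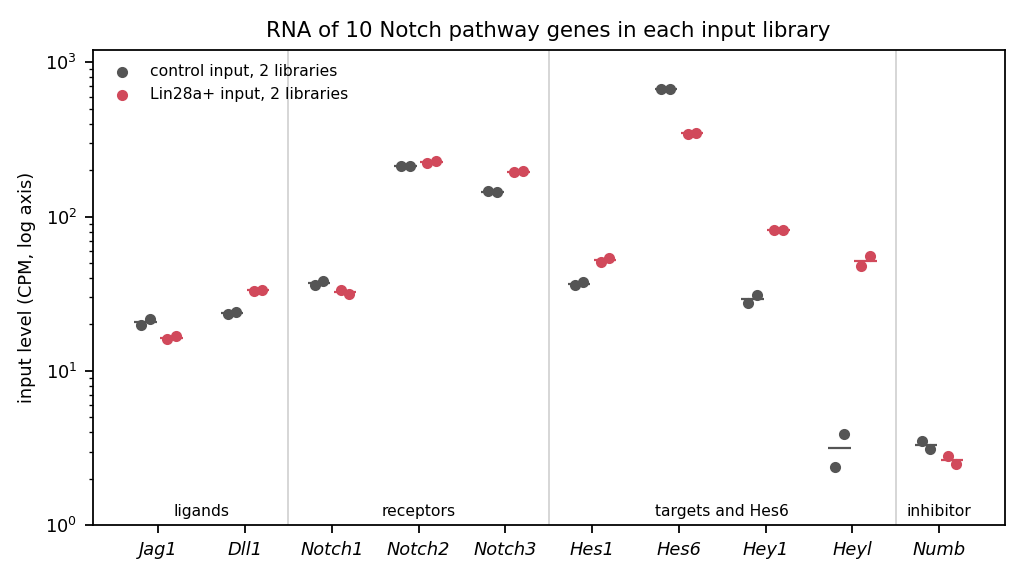
Input level in CPM on a log axis of the 10 Notch pathway genes, ordered by role; each point is a library and each bar the mean of 2 libraries of control (grey) or Lin28a+ (red) MuSCs. Heyl shows the widest gap (2.38 and 3.91 against 47.9 and 55.3 CPM), Hes6 the gap downwards (667 and 669 against 345 and 347 CPM), and Notch2 almost none. Levels of different genes are not comparable.

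The label of the cells was set beside markers. Myod1, the myoblast determination factor, was abundant in all libraries, at 4542 and 4708 CPM in control against 4752 and 4775 CPM in Lin28a+ libraries. Not all myogenic markers were: Mymx was at 7.68 and 8.52 CPM in control against 23.7 and 24.5 CPM in Lin28a+ libraries. Myog, which drives differentiation, rose from 748 and 774 to 2785 and 2837 CPM (log2 1.86, adjusted p = 1.42e-06 by edgeR). Of 14 myogenic markers 4 rose and 8 fell, with a median log2 fold change of −0.36. Among those that fell were Myf5 (−1.21), Vcam1 (−1.93) and Fgfr4 (−1.34). Their summed levels were 15680, 16350, 15440 and 15670 CPM. Of 15 genes of differentiated muscle, 4 rose and 11 fell, with Actc1 (log2 3.75) and Neb (−2.56) at its ends. The satellite cell gene Calcr, a known Notch target of quiescent cells, was not listed.

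Since Notch3, Heyl and Hey1 are also known from pericytes, smooth muscle and vessels, markers of those cells were read in the same libraries. Of 11 pericyte or smooth muscle markers 8 were listed, with Cspg4, Kcnj8 and Higd1b not listed. Of the 5 that could be tested 3 rose and 2 fell. Pdgfrb, a defining pericyte receptor, rose from 1.74 and 1.69 to 3.86 and 4.44 CPM (log2 1.27, adjusted p = 0.00225, edgeR). Rgs5 fell from 2.38 and 2.09 to 0.198 and 0.206 CPM, Myh11 was at most 0.0804 CPM, and Mcam rose from 6.53 and 5.87 to 56.8 and 56.5 CPM (log2 3.17). The sum of the 8 ranged from 6967 to 7135 CPM in control against 8742 to 8754 CPM in Lin28a+ libraries. Within it Acta2, the smooth muscle actin that myoblasts also express, rose from 5311 and 5396 to 7484 and 7495 CPM, and Des, which is on the myogenic list too, fell from 1644 and 1728 to 1195 and 1196 CPM. Of 13 endothelial markers, 8 (Cdh5, Kdr, Tek, Emcn, Cldn5, Esam, Sox17 and Sox18) were not listed, and the other 5 together reached 1.07 to 1.85 CPM. In m6A-RIP, rows bore the labels of 5 endothelial markers and 3 rose: Cdh5 (log2 1.11), Cldn5 (1.02) and Egfl7 (0.33). These rows have no position, and Cdh5 and Cldn5 were not listed in the input. Whether the rows come from the genes of their label was not tested. Macrophage markers summed to 3.52 to 5.85 CPM (6 of 8 listed, Adgre1 and Mrc1 not), glial markers to 1.6 to 3.1 CPM (3 of 5 listed, Sox10 and S100b not), tenocyte markers to 66.9 and 68.8 CPM in control against 143 and 148 CPM in Lin28a+ libraries (2 of 5 listed; Tnmd, Fmod and Thbs4 not; Scx alone 64.5 and 66.5 against 138 and 145 CPM, Mkx not called), and fibro-adipogenic progenitor markers to 151 and 160 against 80.18 and 80.21 CPM (6 of 10 listed; Dcn, Lum, Dpt and Mfap5 not). Of the 3 progenitor markers that could be tested 2 fell, Gsn (log2 −1.21) and Smoc2 (−1.33), whereas Ly6a rose from 3.84 and 4.58 to 13.6 and 12.7 CPM (1.61, adjusted p = 0.000119, edgeR). The part of such cells in the Notch gene differences was not tested, and in bulk RNA fewer cells of a type and less RNA per cell cannot be told apart.

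The m6A-RIP answers whether the pulled-down amount of these transcripts differed between the cells. The table gave 23 rows for 8 of the 10 genes, and none labelled Notch2 or Numb. Rows carry a gene label but no position. No call is given for Heyl, whose RNA difference is named in the choice of the genes. Summed per gene, 6 of the other 7 passed the test, 4 higher and 2 lower, where 66.3% of all 9416 genes passed. Because m6A-RIP pulls RNA that is there, its difference between groups holds the RNA difference too, and it is no independent support of the RNA values.

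Heyl gave 1 row with 5.94 and 4.45 CPM in control against 87.4 and 87.0 CPM in Lin28a+ libraries (189 and 95 counts against 2076 and 2713). Its log2 fold change was 4.14 ± 0.10 in the fit per gene and 4.19 ± 0.10 in the fit of rows. Hey1 rose from 59.7 and 58.5 to 143 and 156 CPM in its single row (log2 1.44 ± 0.05 in the fit per gene, adjusted p = 2.41e-10, edgeR, and 1.49 ± 0.06 in the fit of rows). Hes1, with 3 rows, rose from 98.7 and 95.3 to 120 and 122 CPM in sum (0.42 ± 0.04, adjusted p = 3.46e-06). The m6A-RIP values of the repressors thus had the order of their RNA differences, Heyl, Hey1, Hes1.

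Hes6 carried a large share of the pulled-down RNA. Its single row held 75526 and 50385 counts in control and 28962 and 37698 counts in Lin28a+ libraries, or 0.237% and 0.236% against 0.122% and 0.121% of all m6A-RIP counts. The log2 fold change of Hes6 was −0.86 ± 0.03 in the fit per gene (adjusted p = 3.59e-10, edgeR) and −0.81 ± 0.03 in the fit of rows. Its rank among genes by m6A-RIP counts went from 28 to 30 in control to 59 to 61 in Lin28a+ libraries.

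Dll1 rose by log2 0.44 ± 0.05 (107 and 98.8 against 131 and 130 CPM, adjusted p = 4.05e-06, edgeR), and all 4 of its rows passed, at 0.46 to 0.59. Notch3 rose by 0.36 ± 0.05 (111 and 118 against 134 and 140 CPM, adjusted p = 1.92e-05), and all 6 of its rows passed, at 0.30 to 0.49. The Notch3 row calls depend on the scaling: with library totals the sum still passed (0.26, adjusted p = 0.000303) but only 1 of the 6 rows did, the others having adjusted p = 0.0618 to 0.292. All 4 Dll1 rows passed in every alternative. Notch1 and Jag1 were uneven. Notch1 fell by 0.18 ± 0.05 in sum (136 and 128 against 111 and 107 CPM, adjusted p = 0.00351), with 2 of its 4 rows called lower (−0.19 and −0.22; 0 with DESeq2 and 0 or 1 without any 1 library) and the others at 0.06 ± 0.09 and −0.17 ± 0.21. Jag1 did not pass in sum (−0.15 ± 0.09, adjusted p = 0.184): of its 3 rows 1 passed lower (−0.61 ± 0.23, adjusted p = 0.0347), though not with DESeq2 (0.0903) nor without any 1 of the 4 libraries (0.0533 to 0.187), 1 stood at −0.42 ± 0.21, and the row with the most counts, at 16.5 and 17.3 CPM in control against 17.6 and 14.9 CPM in Lin28a+ libraries, at 0.10 ± 0.12. The difference between rows of a gene was not tested.

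Over the 22 rows of these 7 genes 18 passed, 14 higher and 4 lower, where 61.8% of all 18881 rows passed. That count was 12 to 14 with DESeq2, with library totals in place of TMM, or without any 1 of the 4 libraries. The fold changes of rows and genes rest on TMM: with library totals the median over all rows was −0.15 in place of 0.00, and that over all genes −0.09 in place of 0.01. Notch1 (log2 −0.13) was not called per gene without the first control library (adjusted p = 0.0563), and Jag1 was called lower with library totals (−0.25, adjusted p = 0.0340). The first of the 4 Notch1 rows (0.06) and the Jag1 row at 0.10 turned to −0.09 and −0.06 with library totals.

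**Figure D2:**
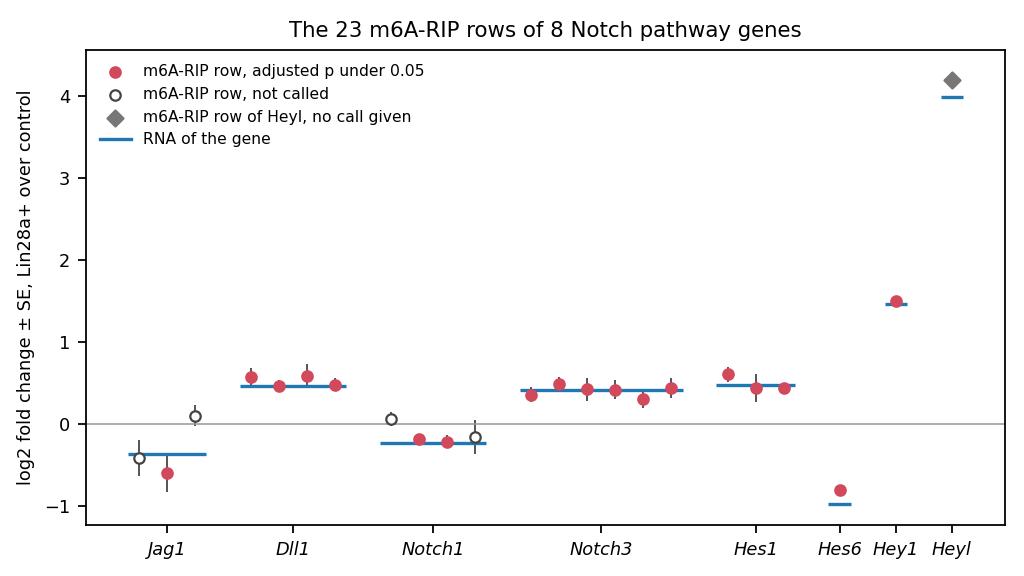
Log2 fold change (Lin28a+ over control, ± SE, 2 libraries per group) of the 23 m6A-RIP rows of 8 Notch pathway genes; filled red points passed an adjusted p under 0.05, open points did not, the grey diamond is Heyl, with no call given, and the blue line is the RNA log2 fold change of the gene. All 6 rows of Notch3 and all 4 of Dll1 sit above 0, whereas rows of Jag1 and Notch1 lie on both sides of 0.

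Set against the input, the m6A-RIP difference of each of the 8 genes lay close to its RNA difference. The difference of the log2 fold changes, m6A-RIP minus RNA, ran from −0.07 ± 0.07 for Hes1 to 0.21 ± 0.14 for Jag1. It was 0.13 ± 0.29 for Heyl, −0.03 ± 0.10 for Hey1, −0.06 ± 0.06 for Notch3, −0.03 ± 0.10 for Dll1, 0.04 ± 0.09 for Notch1 and 0.10 ± 0.04 for Hes6. Over all 7943 genes of this joint fit 7.14% passed the test of this difference. The SE of Heyl was the widest, beside its 13 and 24.3 estimated counts in the control input. Leaving out 1 library turned the sign for Heyl (−0.26 to 0.40), Hey1 (−0.10 to 0.03), Notch1 (−0.01 to 0.09) and Dll1 (−0.08 to 0.04). Since the RNA contrast had chosen the genes, these values are a description, with no call.

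**Figure D3:**
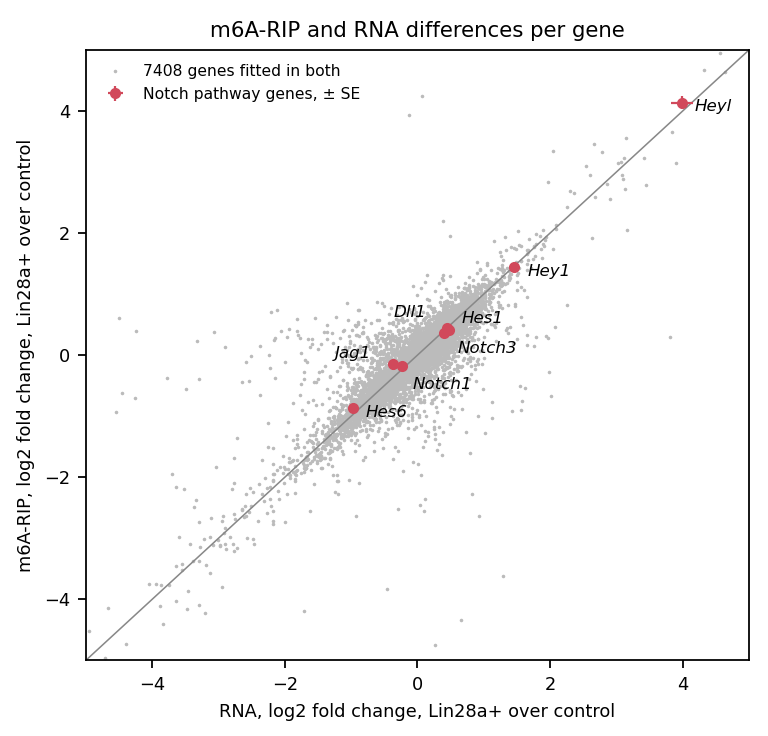
Log2 fold change (Lin28a+ over control) of m6A-RIP summed per gene against that of RNA, for 7408 genes with a fold change in each assay alone and in the joint fit (grey; 16 lie outside the axes) and the 8 Notch pathway genes with m6A-RIP rows (red, ± SE). The line marks equal differences, and the 8 genes lie along it from Hes6 (−0.98, −0.86) to Heyl (3.99, 4.14).

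Lin28a-RIP shows which of these genes had called peaks in the RNA pulled down with Lin28a from Lin28a+ cells. Peak numbers and counts were not corrected for RNA level or gene length. With no control library of this assay, the values are levels and not a comparison. Peaks were counted for a gene when they lay in its RefSeq span (GRCm38.p6), because the gene label of a peak follows another logic: of all 21616 Lin28a-RIP peaks 85.6% lay in the gene they were labelled with and 13.5% only in another protein-coding gene. For Notch2 this mattered most. Of 31 peaks in its span (chr3:98013538-98150367), 28 were labelled Adam30, a gene that lies 10267 bases beyond the end of Notch2 (chr3:98160634-98164169), is not listed in the input and holds no Lin28a-RIP peak itself. By label Notch2 had 3 peaks and by position 31. Of the 26 peaks in Notch1, 1 was labelled Mir6996, a microRNA gene.

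Lin28a peaks were found in 5 of the 10 genes, the receptors and ligands, where 24.5% of all 11310 symbols tested in RNA held one, so a gene without a peak was the common case. Notch2 held 31, Notch1 26, Notch3 13, Jag1 8 and Dll1 1, whereas Hes1, Hes6, Hey1, Heyl and Numb held none. The median over 2889 protein-coding genes with a peak midpoint in their span was 4 peaks, and 85 genes (2.94%) held as many as Notch2 or more. Spans differ in length: the peaks covered 14036 bases (10.3%) of Notch2, 12136 (26.4%) of Notch1, 5495 (11.9%) of Notch3, 2511 (7.16%) of Jag1 and 324 (3.38%) of Dll1. Absence from the table is not absence of binding, since it lists called peaks only.

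The Notch2 peaks summed to 84069 and 78709 counts in the 2 libraries (2296 and 2321 CPM). Those of Notch1 summed to 53874 and 49012 counts (1472 and 1445 CPM). Notch3 gave 17932 and 15548 counts, Jag1 2636 and 2370, and Dll1 561 and 390. Per kb of peak, the median was 142 CPM for Notch2, 120 for Notch1, 82.4 for Notch3, 41.4 for the Dll1 peak and 23.5 for Jag1, where the median of all peaks was 63.2. All 31 Notch2 peaks, 24 of 26 Notch1 peaks and 11 of 13 Notch3 peaks lay above that median, and none of the Jag1 or Dll1 peaks did.

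Peaks were spread unevenly along the genes. In Notch2 the peak nearest the start began 57145 bases after it, and the widest of all, 4241 bases (chr3:98145933-98150173, 32077 and 30762 counts), lay at the 3′ end of the gene. In Notch1 a gap separated a peak at the start from the next, which began 18207 bases after the start, and the widest peak, 3073 bases (chr2:26458023-26461095), was again the last. Notch3 peaks lay between 7998 and 46026 bases after the start of a 46077-base span, with the widest (989 bases) near the end. Exon positions were not used here, so it is not said which peaks fall in exons.

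**Figure D4:**
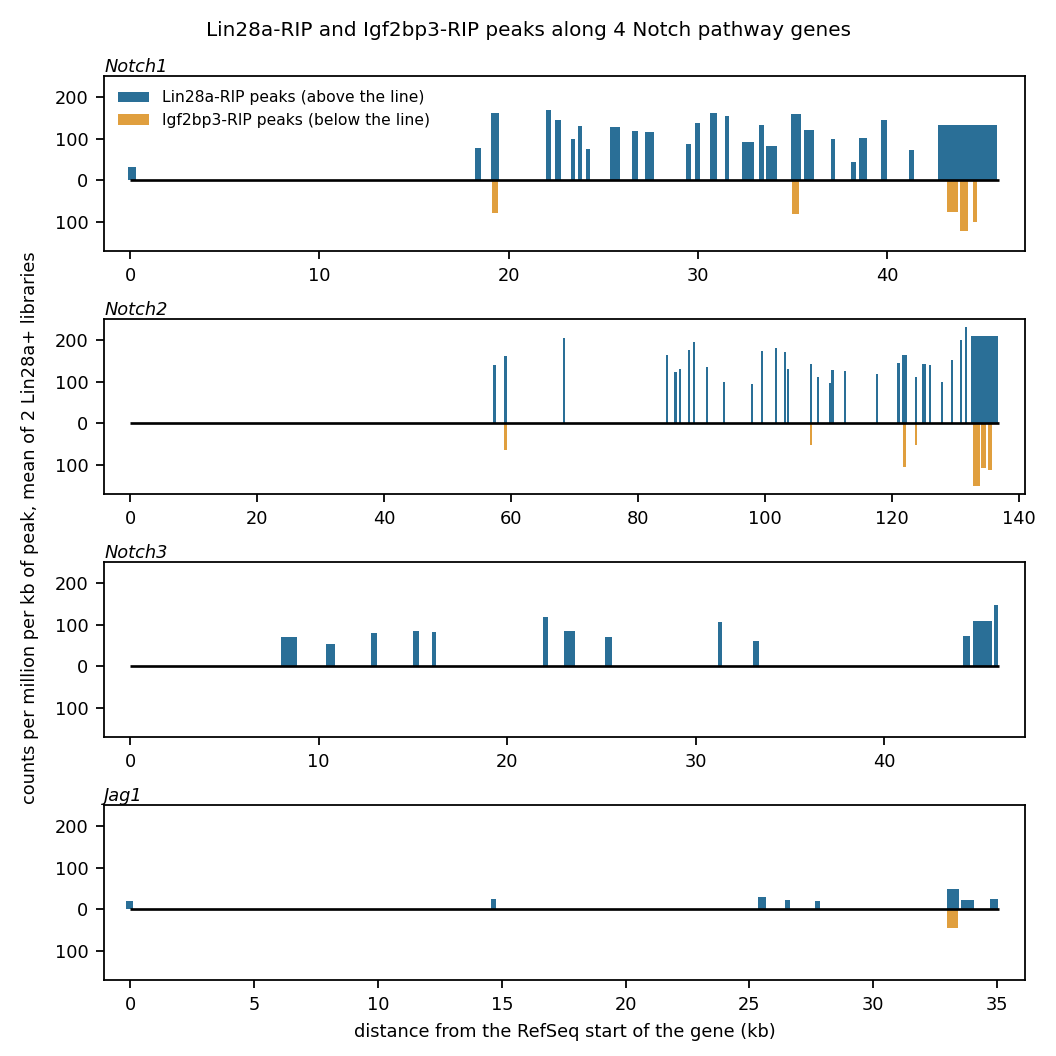
Lin28a-RIP peaks (blue, above the line) and Igf2bp3-RIP peaks (orange, below) along Notch1, Notch2, Notch3 and Jag1, by distance in kb from the RefSeq start; bar height is CPM per kb of peak, mean of 2 Lin28a+ libraries, and bar width is peak width. The widest Lin28a peaks of Notch1 and Notch2 (3073 and 4241 bases) sit at the 3′ end, and the Igf2bp3 peaks lie under Lin28a peaks.

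A pair of Lin28a-RIP peaks reached across an annotated start, those of Notch1 and Jag1, and only there did a reference hold the sequence under a peak. The stretches are shown because GGAG is the short motif that the zinc knuckles of Lin28 proteins are known to bind in let-7 precursors and in mRNA. They run from the upstream edge of the peak to 30 bases after the RefSeq start, on the minus strand of GRCm38.p6, chr2:26503793-26503925 for Notch1 and chr2:137116491-137116686 for Jag1, with GGAG in capitals.
Notch1: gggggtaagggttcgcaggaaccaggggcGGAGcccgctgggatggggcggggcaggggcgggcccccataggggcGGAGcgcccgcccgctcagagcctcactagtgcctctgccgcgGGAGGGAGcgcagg
Jag1: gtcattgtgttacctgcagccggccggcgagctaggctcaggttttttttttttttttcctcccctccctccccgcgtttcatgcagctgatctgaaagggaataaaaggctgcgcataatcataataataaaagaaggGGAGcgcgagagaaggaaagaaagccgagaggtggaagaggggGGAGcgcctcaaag
The Notch1 stretch of 133 bases held GGAG 4 times (2 of them side by side) and its other strand 0 times. Among 32851 promoter windows cut at the same place, 60.7% held GGAG and 6.47% held it as often. The Jag1 stretch of 196 bases held it 2 times, and its other strand 3 times, where 72.1% of windows held it and 43.2% as often. Of these bases 103 and 166 lie before the RefSeq start, where a transcript from that start would not reach. These peaks were among the thinnest of their genes, at 33.5 and 20.3 CPM per kb. RefSeq promoter windows were matched for 7 of the 10 genes, and Hes1, Hey1 and Heyl had no entry.

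Igf2bp3-RIP was made from both cell groups, and 14 peaks lay in the spans of 4 of the genes: 7 in Notch2 (6 labelled Adam30), 5 in Notch1, 1 in Jag1 and 1 in Numb (labelled Papln). Of the 14, 13 lay wholly inside a Lin28a-RIP peak, all but that of Numb. Of all 19465 Igf2bp3-RIP peaks 37.1% did, and of the 14982 in genes with a Lin28a-RIP peak 48%; the difference was not tested, since peaks of a gene are not independent. Notch1, Notch2 and Jag1 carried peaks of both proteins at shared positions, and Notch3 and Dll1 carried Lin28a-RIP peaks only.

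Of the 14 peaks 0 passed the edgeR test between groups and 1 had an unadjusted p under 0.05, and DESeq2 called 0. A fit with the replicate number as a block called 4 of the 14, all in Notch1 and lower, and 1988 peaks in all; no label says that the numbers mark a shared batch. Without the block, over all 19465 peaks 0.123% (24) passed, and 1017 had an unadjusted p under 0.05. By point estimate 13 of the 14 were lower in Lin28a+ libraries, with a median log2 fold change of −0.19 beside −0.01 over all peaks. Of these 14 peaks 12 lay in Notch1 and Notch2. Without 1 library the sign turned for the Numb and Jag1 peaks, a Notch1 peak (−0.50 to 0.32) and several Notch2 peaks (such as −0.41 to 0.55). From the 3′ end, the Notch1 peaks were at 26.4 and 15.7 CPM in control against 24.7 and 15.3 CPM in Lin28a+ libraries, then 84.1 and 58.4 against 57.1 and 37.6, then 81.8 and 63.5 against 56.1 and 34.7, then 41.9 and 47.8 against 28.1 and 28.9, and at the 5′-most peak 31.6 and 39.5 against 25.2 and 22.1. In 4 of the 5 peaks the groups did not overlap, as in 31.8% of all peaks (15% with Lin28a+ lower), with log2 fold changes of −0.62 ± 0.35, −0.70 ± 0.35, −0.68 ± 0.27 and −0.62 ± 0.28, and the lowest adjusted p was 0.899 (edgeR; unadjusted 0.0396).

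Summed per gene, Notch1 stood at log2 −0.61 ± 0.22 (adjusted p = 0.523, edgeR), where 0.287% of 4527 genes passed (13, with 382 at an unadjusted p under 0.05). With peaks summed by gene span it was −0.61 ± 0.22 for Notch1 (adjusted p = 0.427), −0.19 ± 0.21 for Notch2 (0.853), 0.15 ± 0.31 for Jag1 (0.936) and −0.13 ± 0.43 for Numb (0.963), and 0.762% of 3935 genes passed. The Notch2 peaks ran from −0.45 ± 0.43 to −0.01 ± 0.27. In its strongest peak, 194 and 163 CPM in control stood beside 186 and 121 CPM in Lin28a+ libraries, so the groups overlapped. The calls for Notch1 depend on the design of the fit, as given above.

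Whether the m6A-RIP rows labelled Adam30 lie in Notch2, as the peaks of that label do, was not tested, since rows have no positions. The 4 rows were at log2 −0.03 to 0.24, and their sum at −0.05 ± 0.04 (adjusted p = 0.275, edgeR), beside 0.05 ± 0.03 for Notch2 RNA. Adam30 was chosen after its values were seen.

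The other genes of the pathway give the setting. Of 69 such genes 63 were listed in the input and 55 could be tested in RNA: 15 rose, 20 fell and 20 did not pass, 63.6% called beside the 56.8% over all genes, with a median log2 fold change of −0.06 beside 0.01. In m6A-RIP 15 of 47 rose and 21 fell, where 32.5% of all 9416 genes rose and 33.8% fell.

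Of 5 further ligands 1 could be tested in RNA, Jag2, which fell from 18.9 and 19.1 to 15.3 and 14.99 CPM (log2 −0.35, adjusted p = 0.0356, edgeR), on the side of Jag1. Dlk2, a Delta-like protein, was too low for the RNA test, at 1.83 and 2.12 CPM in control against 0.158 and 0.330 CPM in Lin28a+ libraries, and its m6A-RIP row fell by 3.39 ± 0.30 on the log2 scale (adjusted p = 6.55e-07, edgeR). It was named after its values were seen. Notch4 was at 0.0915 to 0.147 CPM in the 4 libraries and was not tested.

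Among 14 genes of receptor glycosylation and cleavage 5 rose and 2 fell. Lfng, the Fringe sugar transferase that shifts receptors towards Delta ligands, rose from 7.44 and 6.64 to 22.1 and 20.4 CPM (log2 1.57 ± 0.10, adjusted p = 8.98e-05, edgeR). Adam10, the protease of the ligand-dependent cut, fell by 0.69 ± 0.06, and Psen2, a catalytic subunit of gamma-secretase, rose by 0.62 ± 0.07. Among 12 genes of endocytosis and ubiquitin transfer 2 rose and 4 fell. Dtx4, a Deltex ligase of the receptors, had the largest rise of these 55 genes, from 75.2 and 81.7 to 348 and 333 CPM (log2 2.09 ± 0.04). Mib1, the ligase that ligands need in order to signal, fell from 80.2 and 79.8 to 40.9 and 43.2 CPM (−0.96 ± 0.04), and Neurl1a, another ligand ligase, fell by 0.98 ± 0.04.

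In the nuclear complex 5 of 9 genes fell and 2 rose. Maml2, a Mastermind coactivator, fell from 10.7 and 10.4 to 3.43 and 3.62 CPM (log2 −1.58 ± 0.11), Maml3 by 0.72 ± 0.06 and the acetyltransferase Ep300 by 0.66 ± 0.06. Of 12 corepressors 3 rose and 4 fell, with Ncor1 at −0.75 ± 0.07, Tle1 at −0.69 ± 0.11 and the deacetylase Hdac1 at 0.64 ± 0.04. So coactivators and corepressors held genes of both directions.

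All 7 further genes listed as targets that could be tested were called, 3 higher (Nrarp, Gas1 and Id3) and 4 lower (Id1, Id2, Bhlhe40 and Bhlhe41). Whether each of them answers to Notch in these cells was not tested. Nrarp, a feedback inhibitor that Notch induces in many tissues, rose from 1.83 and 4.02 to 10.7 and 13.4 CPM (log2 1.97 ± 0.28, adjusted p = 0.00189, edgeR). Gas1, a membrane protein of growth arrest, rose from 191 and 191 to 616 and 621 CPM (1.67 ± 0.03), and Bhlhe40 fell from 32.8 and 28.3 to 14.4 and 12.5 CPM (−1.19 ± 0.12). Hes5, a common Notch readout elsewhere, was not listed. The rise of Nrarp was on the side of Heyl and Hey1, and that list as a whole ran in both directions.

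**Figure D5:**
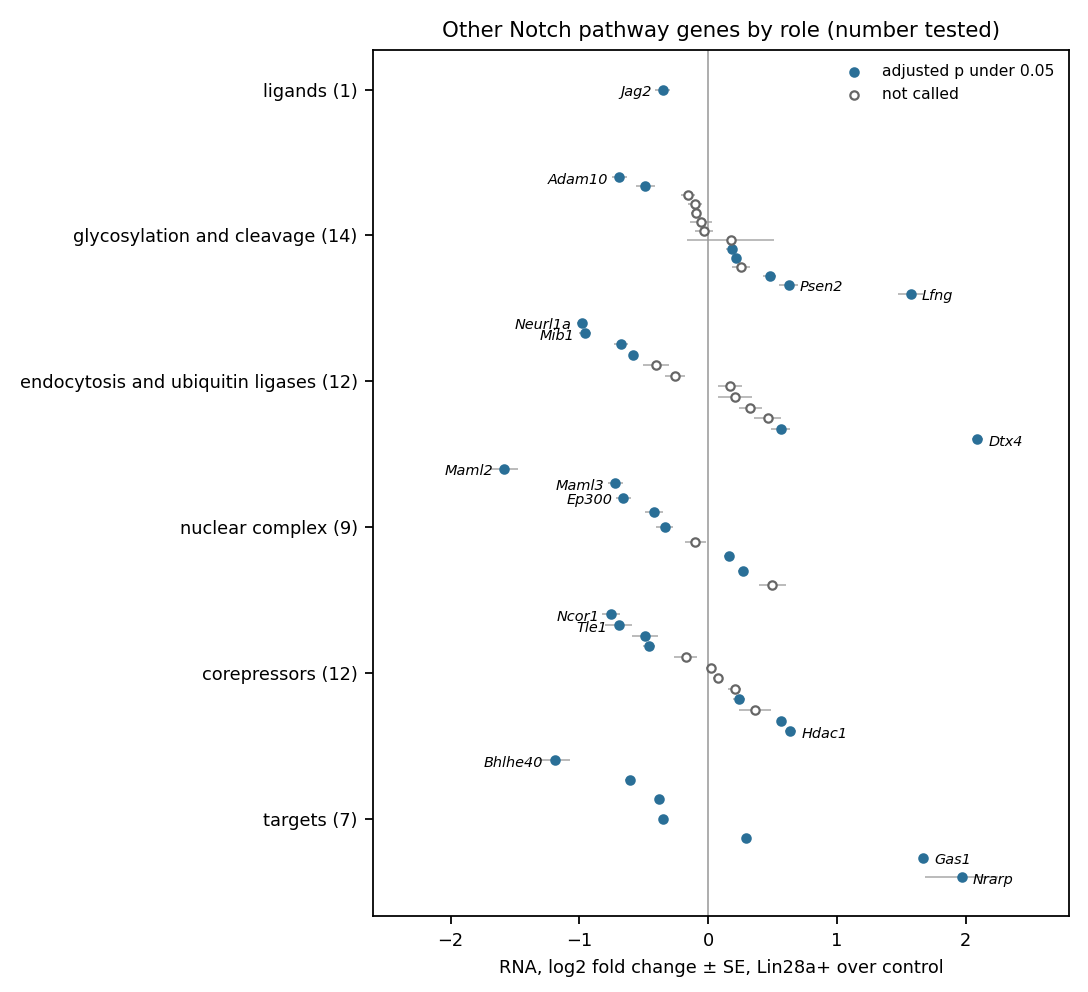
RNA log2 fold change (Lin28a+ over control, ± SE, 2 libraries per group) of 55 other Notch pathway genes by role, with the number tested in brackets; filled points passed an adjusted p under 0.05 and open points did not. Dtx4 (2.09) and Nrarp (1.97) stand at the high end and Maml2 (−1.58) at the low end, and every role with more than 1 gene has called genes on both sides of 0.

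Genes that Notch is known to act on in satellite cells were read too. Pax7, the satellite cell transcription factor, rose from 139 and 154 to 195 and 190 CPM (log2 0.36 ± 0.04, adjusted p = 0.00108, edgeR). The collagen genes Col5a1 (−0.13 ± 0.04), Col5a3 (−0.73 ± 0.18) and Col6a1 (−0.88 ± 0.09) fell, and Col6a2, below 1 CPM, could not be tested. Of the 4 genes tested, 1 thus rose and 3 fell.

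By position, 19 of the 69 other pathway genes held Lin28a-RIP peaks and 22 Igf2bp3-RIP peaks. All of them were among the 55 tested in RNA, so the shares were 34.5% and 40%, beside 24.5% and 33.3% of all symbols tested in RNA; this difference was not tested. Among the genes named above, Ncor1 held 24 Lin28a-RIP and 37 Igf2bp3-RIP peaks, Ep300 20 and 21, Mib1 14 and 17, and Adam10 13 and 9, and the RNA of all 4 fell. The targets held no peak of either protein, as for Hes1, Hes6, Hey1 and Heyl.

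The genes whose pattern over the 8 input and m6A-RIP libraries was most like that of Heyl were sought among 7943 genes. The measure was the root mean square difference of log2(CPM + 1), centred for each gene within each assay. They were Tbx1, a T-box transcription factor (difference 0.23), Zcchc3 (0.24), Cdkn1c, a cyclin-dependent kinase inhibitor (0.29), Srrm4, a neural splicing factor (0.36), and Selp, an adhesion protein of platelets and vessels (0.39). Their RNA log2 fold changes were 4.32, 4.64, 4.57, 4.07 and 5.05, so that all 5 share a large difference with Heyl. With a pseudocount of 0.1 CPM 3 of these 5 were found again, and with the input libraries alone 2, Tbx1 and Zcchc3.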

How the data were processed

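The libraries were sequenced by the study's authors, who deposited 4 tables. Per the file headers and values, the authors deposited estimated counts per gene for the input, which are not whole and not scaled to depth. For the RIP assays the authors deposited raw whole-number counts of reads per called peak or row, not scaled to depth. The submitters' processing notes name FastQC, HISAT2 2.0.4, MACS2 1.4.3, DESeq2 1.42.0 and the builds mm10 and GRCh38. The peak threshold and the counting tool are not given in the sources used here.

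Estimated counts were rounded, and genes, rows or peaks kept by filterByExpr were tested with the quasi-likelihood test of edgeR 4.0.16 (R 4.3.3, limma 3.58.1, TMM scaling), Lin28a+ against control, 2 libraries each, with a Benjamini-Hochberg adjusted p under 0.05 over the whole table. CPM are per library total, so a ratio of CPM can differ from the TMM fold change. The m6A-RIP difference relative to input was an interaction term. Rows and peaks were also summed per gene label, and peaks by RefSeq gene span (GRCm38.p6, the assembly of mm10), a peak counting for a gene in the text if it overlapped its span and in the sums if its midpoint lay there. RIP levels over input are not ranked across genes, because input values look like means over transcripts. The scripts were tested on simulated data.

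Named were the 10 genes, the 3 other pathway genes of each role with the largest called RNA change and no overlap of libraries, the satellite cell genes and the 5 genes most like Heyl. The 10 genes and all lists were chosen with earlier results of these data known. In all, 4 columns had no usable replicate number. Alternatives were DESeq2, library totals, other filters, leaving out each library, and a replicate block.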

Additional observations from a re-analysis of the deposited data

How the results depend on the processing

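Of 391 recomputed m6A-RIP and Igf2bp3-RIP values of the 10 genes, those of Heyl left aside, 328 held in sign and in call, 31 lost the call, 8 gained it and 24 changed sign. Of 104 differences relative to input, which carry no call, 7 changed sign. No RNA value or m6A-RIP sum of a gene changed sign. Counts over all genes moved with DESeq2: 3039 genes in RNA, 335 in m6A-RIP relative to input, 263 Igf2bp3-RIP peaks and 115 genes in Igf2bp3-RIP. With at least 10 counts in every library 0 Igf2bp3-RIP peaks passed (edgeR), and with library totals 7 genes. Leaving out each library in turn gave 299 to 619 genes in m6A-RIP relative to input, 108 to 193 Igf2bp3-RIP peaks and 39 to 73 genes. Peaks summed by gene span, chosen after seeing the data, gave 30 genes in Igf2bp3-RIP, and 3 in place of 2 of the 5 genes above the median of Lin28a-RIP over input, a ratio between genes that is otherwise not reported. Of the genes most like Heyl, 3 were found again with a pseudocount of 0.1 CPM and 2 with the input alone. With library totals, 3842 m6A-RIP rows were higher and 7638 lower (33.5% higher, beside 48.5% with TMM), and 2395 genes higher and 3766 lower (38.9% beside 49%). The cause of these shifts was not tested.

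With library totals the signs that turned were those of a Notch1 (−0.093) and a Jag1 (−0.0555) m6A-RIP row, 2 Notch2 Igf2bp3-RIP peaks (0.0027 and 0.017) and the Notch2 sum (0.0029). Without 1 library each, m6A-RIP rows ranged from −0.0236 to 0.159 and −0.363 to 0.0946 (Notch1) and −0.0171 to 0.217 (Jag1). Igf2bp3-RIP peaks ranged from −0.75 to 0.36 (Numb), −0.50 to 0.32 (Notch1), −0.16 to 0.52 (Jag1), and −0.41 to 0.55, −0.89 to 0.27, −0.26 to 0.077, −0.61 to 0.0509, −0.27 to 0.0288 and −0.12 to 0.13 (Notch2), and the sums from −0.12 to 0.46 (Jag1) and −0.46 to 0.60 (Notch2).

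Of the 3 compared assays, only the Igf2bp3-RIP columns carry usable replicate numbers in both groups. The Lin28a+ input columns bear numbers, but in names of m6A-RIP libraries. Depth went with the number in both groups: number 1 held 9215355 (control) and 12617254 (Lin28a+) counts, and number 2 held 27592959 and 34142094. The number-2 minus number-1 differences of the groups correlated at r = 0.688 across 19465 peaks, which are not independent. However, no label says that a number marks a shared batch, and there are only 2 pairs. With the replicate block 1988 peaks and 374 genes passed (304 by gene span). Then 4 of 5 Notch1 peaks passed at log2 −0.62 to −0.74 (adjusted p = 0.00188 to 0.0214, edgeR), as did Notch1 in sum (−0.62, adjusted p = 0.0257, or 0.0356 by gene span), and 1 Notch2 peak turned to 0.0035. Igf2bp3-RIP had the widest spread between libraries of the 3 compared assays, 27.9%.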
